A study of Caenorhabditis elegans with 2 samples.

Results

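Dense runs of neighbouring binding summits were described in chromatin bound by BLMP-1, the C. elegans homolog of the mammalian zinc-finger repressor Blimp-1, in whole L1 larvae. The optimal peak list is what the authors' reproducibility analysis gave, and a listed peak need not be found in both replicates. The runs were chosen by summit position alone. Neighbouring summits of this list that lay at most 1500 bp apart were joined, and every run of 4 or more summits was kept. This gave 207 runs holding 992 of the 8751 optimal peaks, which is 11.3% of them. The remaining 7759 optimal peaks lay alone (4883), in 967 pairs or in 314 groups of 3. The animals belonged to strain OP109 (unc-119(ed3) III; wgIs109), in which the insertion wgIs109 targets blmp-1 and supplies the eGFP tag. They were L1 larvae of pooled sexes taken whole, so binding in different tissues cannot be told apart. The study had 2 biological replicates of this 1 group. Positions are on genome build ce11 and genes are those of the Ensembl release 115 annotation of the same assembly.

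BLMP-1 acts in the hypodermis, the syncytial skin of the worm, where it is known for roles in developmental timing, molting and cuticle formation. Many genes of these programs are expressed in a cycle that repeats with each molt. A ChIP peak marks where chromatin bound to the tagged protein was enriched, and its summit is the position of highest enrichment. Close summits can be separate bound elements or parts of 1 broad bound region, and the peak list alone cannot tell these apart.

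The sequences under the summits show how runs are put together, and 4 runs are given here for their size or strength. Each stretch is 151 bases of the plus strand of the RefSeq WBcel235 genome centred on a summit. The capitals mark AAAGTGAAA, the motif known for BLMP-1, or its reverse complement, with at most 1 mismatch, and overlapping matches are merged. At ccch-1, which encodes a CCCH zinc-finger protein, the strongest member of any run was the second strongest of all optimal peaks, and an exact match overlaps a match with 1 mismatch.
ccch-1 strongest member, chrV:11533112-11533262: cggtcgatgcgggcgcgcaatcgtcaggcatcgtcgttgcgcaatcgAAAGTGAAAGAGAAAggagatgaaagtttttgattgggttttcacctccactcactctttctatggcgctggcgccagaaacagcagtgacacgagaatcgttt
Upstream of bcl-11, the strongest member ranked 3 among all optimal peaks and holds no match, whereas the member that ranked 15 holds an exact match on the minus strand.
bcl-11 strongest member, chrV:6354311-6354461: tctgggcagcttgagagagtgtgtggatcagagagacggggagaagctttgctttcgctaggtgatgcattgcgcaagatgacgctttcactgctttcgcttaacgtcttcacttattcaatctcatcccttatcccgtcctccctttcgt
bcl-11 member of rank 15, chrV:6352488-6352638: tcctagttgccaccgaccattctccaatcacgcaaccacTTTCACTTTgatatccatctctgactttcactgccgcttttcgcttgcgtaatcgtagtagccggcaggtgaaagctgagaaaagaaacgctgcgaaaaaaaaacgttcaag
At kin-20, the casein kinase 1 homolog of the heterochronic (developmental timing) pathway, the strongest member (rank 16) holds no match, while the member of rank 87 and the weakest member (rank 8012) each hold an exact match.
kin-20 strongest member, chrX:15276890-15277040: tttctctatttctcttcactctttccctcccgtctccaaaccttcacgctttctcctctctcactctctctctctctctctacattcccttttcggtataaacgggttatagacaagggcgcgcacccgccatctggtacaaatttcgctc
kin-20 member of rank 87, chrX:15274977-15275127: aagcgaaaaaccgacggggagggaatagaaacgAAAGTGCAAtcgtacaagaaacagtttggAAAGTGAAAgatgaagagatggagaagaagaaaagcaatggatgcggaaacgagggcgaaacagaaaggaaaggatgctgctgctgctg
kin-20 weakest member, chrX:15273017-15273167: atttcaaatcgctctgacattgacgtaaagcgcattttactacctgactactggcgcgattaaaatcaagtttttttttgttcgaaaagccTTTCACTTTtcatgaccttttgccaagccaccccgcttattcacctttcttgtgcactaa
At egl-27, where the run with the most summits lies, the strongest member of that run (rank 146) holds no match and the member of rank 923 holds an exact one.
egl-27 strongest member, chrII:6829201-6829351: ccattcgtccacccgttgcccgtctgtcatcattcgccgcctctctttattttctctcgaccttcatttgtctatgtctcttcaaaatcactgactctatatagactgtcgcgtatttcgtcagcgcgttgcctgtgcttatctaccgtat
egl-27 member of rank 923, chrII:6837314-6837464: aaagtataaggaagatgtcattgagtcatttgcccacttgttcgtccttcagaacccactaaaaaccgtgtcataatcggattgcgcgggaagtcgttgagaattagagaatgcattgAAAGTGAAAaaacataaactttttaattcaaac
In these 4 runs the exact motif stood under some strong, middling and weak members, and was absent under some of the strongest. Over all runs, it stood under 13.5% of the members among the 875 strongest optimal peaks and under 5.95% of all members. For the other optimal peaks these shares were 15.6% and 5.35%, so the higher share among strong peaks was not particular to runs.

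Runs were mostly short. Of the 207 runs, 123 had 4 summits, 44 had 5, 21 had 6, 9 had 7 and 7 had 8, and single runs had 9, 12 and 14. Spans from the first to the last summit ran from 1392 to 10440 bp with a median of 3105 bp, and together covered 716152 bp, 0.714% of the genome. Neighbouring summits within a run were a median of 911 bp apart (range 199 to 1496 bp), against 3968 bp between all neighbouring optimal summits. Of the 785 gaps within runs, 48 (6.11%) were no longer than 336 bp, the most frequent peak width, so those summits lay within about 1 peak of each other. These values follow from the rule and carry no test. Just inside the join distance, 138 gaps of the whole list were over 1400 and at most 1500 bp, and just outside it 158 gaps were over 1500 and at most 1600 bp. The 123 runs of 4 summits had a median span of 2795 bp and a median strongest signal of 385, and the 314 groups of 3 summits just outside the rule had 1789 bp and 322.

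**Figure D1:**
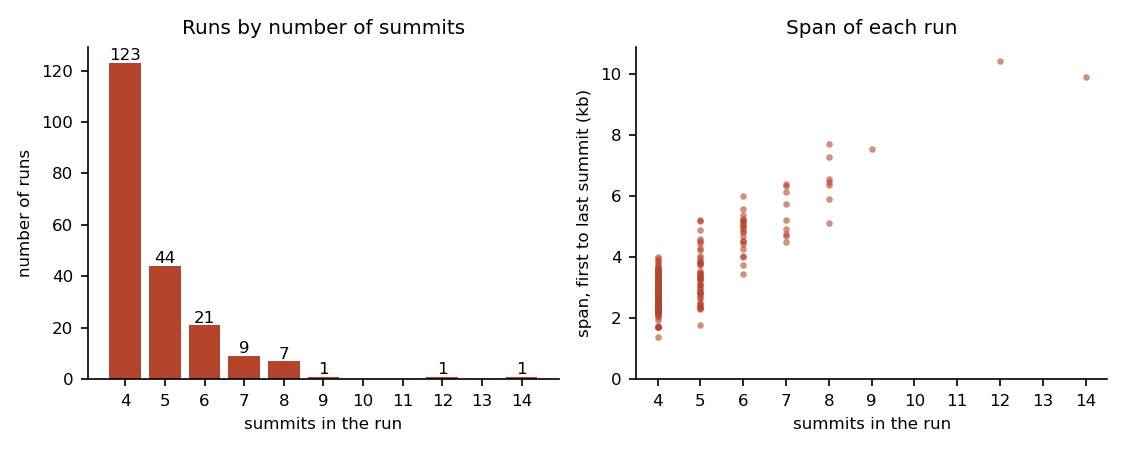
Left: number of runs (vertical axis) by the number of summits they hold (horizontal axis). Right: span in kb of each of the 207 runs, 1 point per run, by the number of summits. Runs of 4 summits were the most frequent with 123, and the span reached 10440 bp in a run of 12 summits.

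Several runs lay next to each other. In 17 cases the next run began within 5000 bp of the last summit of the one before, and these formed 14 stretches, 3 of them made of 3 runs each. The stretch with the most summits was at egl-27, which encodes a homolog of the metastasis-associated proteins of histone deacetylase complexes. There 3 runs of 8, 14 and 4 summits held 26 summits over 24040 bp on chromosome II (6821214 to 6845254), from far upstream of the gene into its body. A stretch on chromosome V (6224587 to 6249367) held 3 runs of 12, 4 and 5 summits around W06H8.6, K08B12.3 and dmd-7, a gene of the doublesex-related family, with 21 summits over 24780 bp. On chromosome X, 3 runs at R03E9.2 and mdl-1, a Mad-like basic helix-loop-helix repressor, held 17 summits over 14530 bp, and 2 runs upstream of F57G12.1 held 15 summits over 12902 bp.

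At egl-27 the strongest members stood upstream and not at the starts. The member with a pooled signal of 1166 (426 in replicate 1 and 757 in replicate 2) lay 8126 bp from the nearest annotated start, and the member with 1074 (376 in replicate 1 and 718 in replicate 2) lay 5732 bp from it. Signal is the authors' value of peak enrichment, no source used here states its scale, and it serves here only to rank and describe peaks within 1 list. In the run of 14 summits, the strongest member carried 29.5% of the summed signal and the weakest had 65.4. Of these 14 members, 9 had a summit within 100 bp among the equally many (8751) strongest peaks of each replicate. A further optimal peak with a signal of 630 lay between the second and the third run, too far from either to be joined.

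The stretch from W06H8.6 to dmd-7 held weaker members. Its strongest had a pooled signal of 623 (272 in replicate 1 and 376 in replicate 2) and ranked 472 among all optimal peaks. The 12 summits of its first run ran from 69.8 to 550, and 6 of them were matched in both replicates. Of these 12 members, 2 ranked among the 875 strongest optimal peaks.

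**Figure D2:**
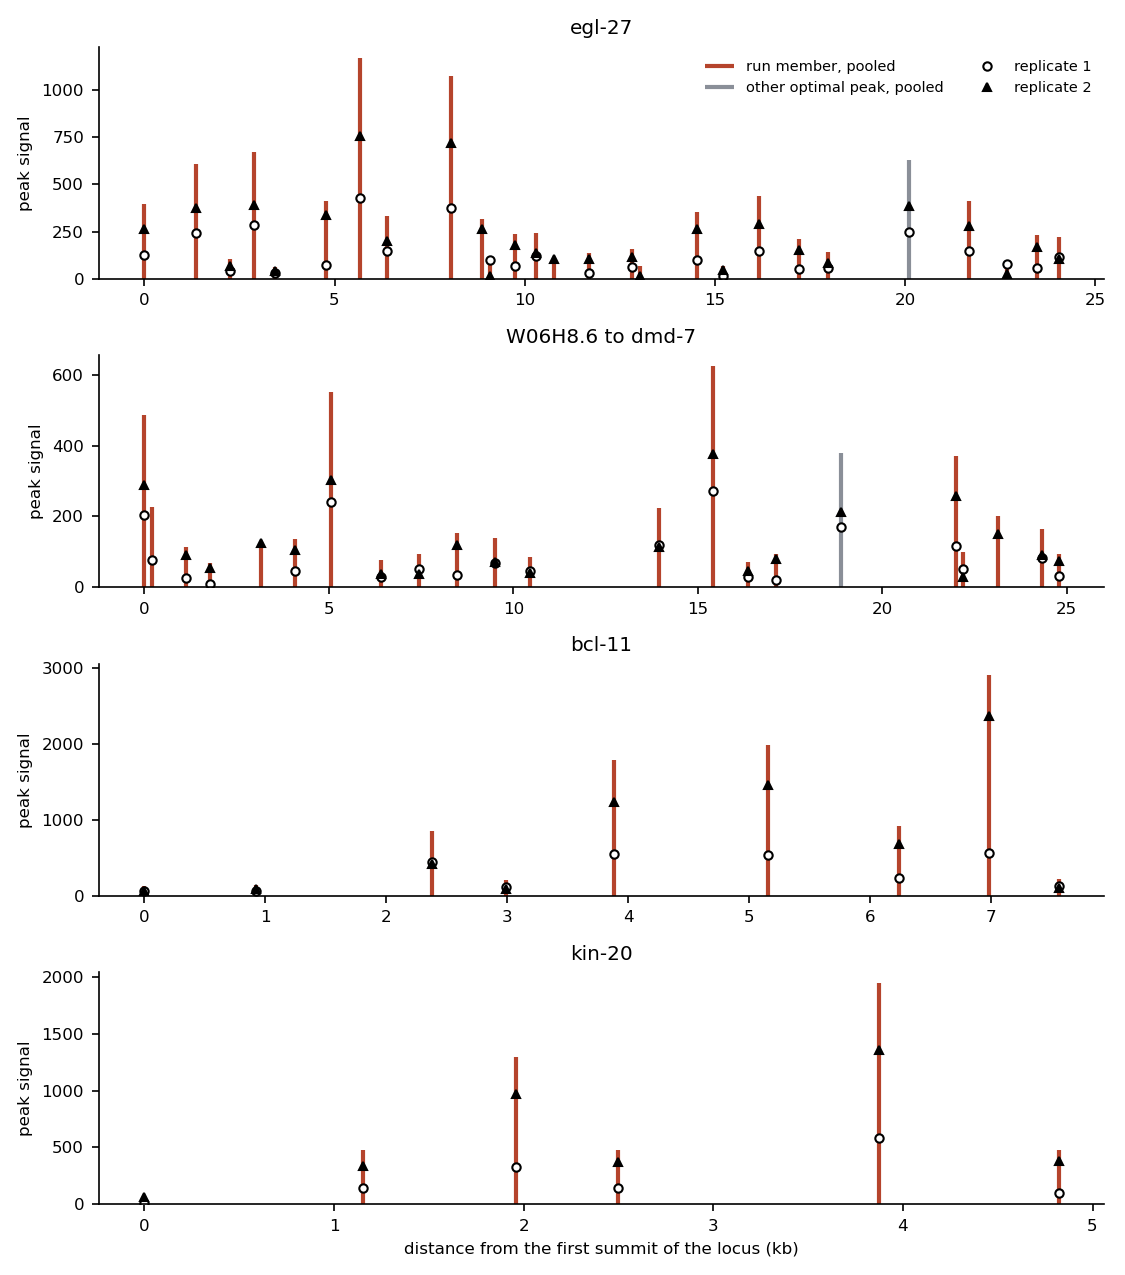
Peak signal (vertical axis, the authors' scale) against distance in kb from the first summit (horizontal axis) at egl-27, from W06H8.6 to dmd-7, upstream of bcl-11 and at kin-20. Bars are pooled optimal peaks (red, run members; grey, other optimal peaks), open circles replicate 1 and triangles replicate 2, each at the nearest summit within 100 bp in that replicate's list, with no mark where there was none. Strong and weak members stood side by side, with maxima of 1166, 623, 2907 and 1944.

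Of the 10 runs with the strongest best members, 6 lay between protein-coding genes, 3 held a protein-coding start and 1 lay inside a gene body without one. The ccch-1 run on chromosome V (11531200 to 11535721) had 6 members, all in introns of ccch-1. Its strongest member had a pooled signal of 3025, with 1175 in replicate 1 (the strongest peak of that list) and 1849 in replicate 2 (rank 5). The next members of that run had 1568 and 1119, and the weakest had 149.

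The bcl-11 run on chromosome V (6347403 to 6354964) had 9 members, all between protein-coding genes and all matched in both replicates. bcl-11 is the homolog of the BCL11 zinc-finger factors. Its strongest member had 2907 in the pooled list, 564 in replicate 1 and 2366 in replicate 2, and lay 1639 bp upstream of the start. Members of 1978 and 1780 followed, and the farthest member lay 8622 bp upstream with a signal of 128. Of the 9 members 7 held the motif with at most 1 mismatch.

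The kin-20 run on chromosome X (15273092 to 15277913) had 6 members and covered alternative starts of the gene. The strongest had 1944 in the pooled list, 583 in replicate 1 and 1359 in replicate 2, in an intron 799 bp downstream of a start. The member of rank 87 had 1293 in the pooled list, 326 in replicate 1 and 973 in replicate 2. The weakest had 71.6 in the pooled list, 9.05 in replicate 1 and 59.6 in replicate 2, and fell outside the strongest peaks of replicate 1. The strongest member was 27.1 times the weakest, a span of signal exceeded only by the run upstream of F52E1.2 (29.9 times).

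At F52E1.2, the strongest of 5 members had 1880 in the pooled list, 721 in replicate 1 and 1179 in replicate 2, and carried 74.3% of the summed signal of its run. The other members there ran from 63.0 to 264. The run upstream of noah-1, which encodes an apical extracellular matrix protein needed for molting, had 4 members (chromosome I, 5879695 to 5882142), of which the strongest (1794 pooled, 391 in replicate 1, 1409 in replicate 2) lay 3184 bp upstream and held an exact motif. Both members nearest to noah-1 (275 and 117 pooled) had no summit within 100 bp in the replicate 1 list. These 2 members are summits 199 bp apart within the same listed interval (5879387 to 5879994), and the run reaches 4 summits only with both. No replicate 1 run overlapped the noah-1 run.

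On chromosome I (13062853 to 13066036), 4 members lay between hpo-2 and nhr-85, a nuclear hormone receptor related to Rev-erb. The strongest was nearest to hpo-2 (1536 pooled, 729 in replicate 1, 831 in replicate 2) and the next (1273 pooled, 490 in replicate 1, 772 in replicate 2) lay 731 bp upstream of nhr-85. A run of 4 across T23E7.6 reached 1442 (423 in replicate 1 and 1025 in replicate 2). A run of 8 between C49F8.15 and mxl-3, a Max-like basic helix-loop-helix factor, reached 1429 (519 in replicate 1 and 913 in replicate 2). No replicate 1 run overlapped this run of 8, and 6 of its members were matched in both replicates. In the T23E7.6 run and the C49F8.15 run, the strongest member was the last summit in chromosome order. The same held in the runs at F52E1.2, noah-1, hpo-2 and Y67D8A.2. Over all 207 runs, the strongest member was the first or the last summit in 89. Of the 207 runs, 123 had 4 summits, where 2 of the 4 positions are first or last, so this count shows no preference for the ends.

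The run of 4 inside the body of Y67D8A.2 on chromosome IV (3231926 to 3234580) reached 1370 (549 in replicate 1 and 845 in replicate 2), and its span also holds the microRNA gene mir-58a. Upstream of mlt-11, which encodes a Kunitz-domain protein of the molting program, 6 members lay between 20662660 and 20667103 on chromosome V. The strongest had 1343 in the pooled list, 345 in replicate 1 and 994 in replicate 2, 2055 bp upstream of the start, and the member 102 bp upstream had 259 and held an exact motif. The last 3 members toward mlt-11 had a match within 100 bp in replicate 2 and none in replicate 1.

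The remaining runs with 8 members were at nhr-3, F49E2.5, lpin-1 and in the body of cwf-19L2. At nhr-3, a nuclear hormone receptor gene, the strongest member had 1200 (427 in replicate 1 and 780 in replicate 2) in an intron, 1980 bp downstream of a start. In F49E2.5, all 8 members lay in introns, the strongest with 972 (366 in replicate 1 and 617 in replicate 2). Between lpin-1, the lipin phosphatidate phosphatase, and letm-1, the 8 members were all matched in both replicates, with the strongest at 1087 (426 in replicate 1 and 662 in replicate 2). The run in cwf-19L2 held the starts of B0361.14 and B0361.9 and reached 572, and none of its 8 members held the motif even with 1 mismatch.

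Across all 207 runs the members of 1 run differed widely in strength. The strongest member was a median of 5.01 times the weakest (range 1.36 to 29.9) and carried a median of 41.0% of the summed signal (range 21.1% to 76.2%). The weakest member had a median signal of 78.7, near the lowest signal of the optimal list (62.0). Neither the ratio nor the share was taken for other sets of peaks, so neither is shown to be particular to runs. The strongest member had a median signal of 449 and ranged from 108 at col-166, a collagen gene, to 3025 at ccch-1, and in 103 runs it was among the 875 strongest optimal peaks. In 4 runs no member was among the 4375 strongest. When run membership was rotated along the order of peaks of each chromosome 1000 times, the median strongest signal averaged 353 and ran from 295 to 423. Over single peaks, the median signal was 177 for members and 144 for the other optimal peaks. Of members 15.7% were among the 875 strongest, against 9.27% of other optimal peaks. This share was 12.4% in groups of 3, 9.36% in pairs and 8.62% in peaks alone. Since the same peaks chose the runs, these signals are descriptions with no test.

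**Figure D3:**
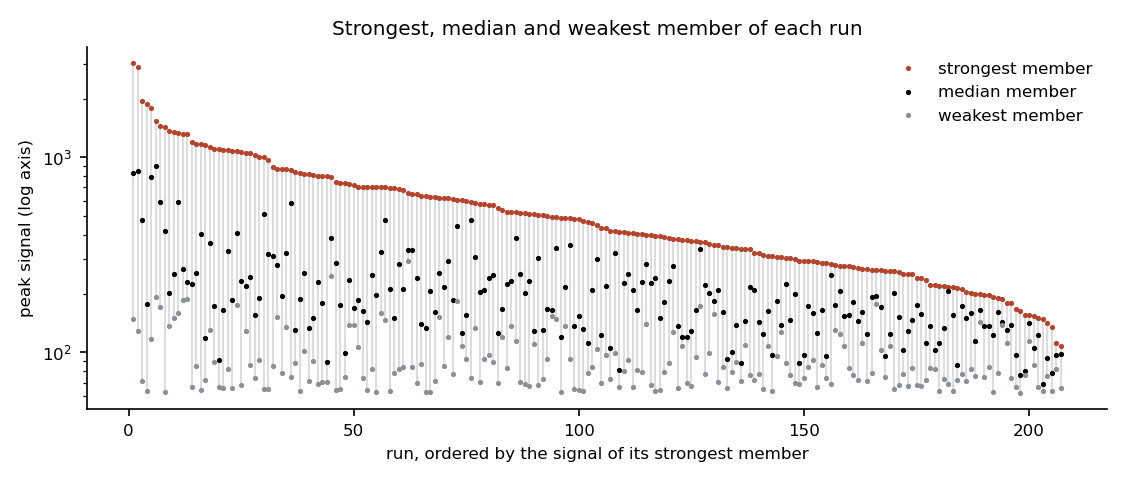
Signal of the strongest (red), median (black) and weakest (grey) member of each of the 207 runs, on a log axis, ordered by the strongest member; grey lines join the members of a run. The strongest members ran from 3025 down to 108, while the weakest members stayed between 62.1 and 295.

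The question whether runs recur between replicates was asked by applying the same rule to the 8751 strongest peaks of each replicate alone. Replicate 1 gave 202 runs with 996 peaks and replicate 2 gave 194 runs with 909 peaks. Of the replicate 1 runs, 114 (56.4%) were overlapped by a replicate 2 run, and of the replicate 2 runs 116 (59.8%) by a replicate 1 run. When the replicate 2 runs were moved around each chromosome by at least 10000 bp, 1.28% of the replicate 1 runs were overlapped on average and at most 5.45% (1000 circular shifts, one-sided permutation p = 0.001, the smallest these shifts can give). Shifts keep the spacing of the runs but not the peak density around them. They also remove the agreement of single peaks, and 75.1% of optimal peaks outside runs were matched in both replicates. The test therefore cannot tell recurrence of runs as units from recurrence of their single peaks.

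Of the 207 runs of the optimal list, 134 overlapped a replicate 1 run, 163 a replicate 2 run, 110 both and 20 neither. In 59 runs every member was matched in both replicates, and no run lacked such a member. Member by member, 76.0% of members (95% exact binomial interval 73.2% to 78.6%) and 75.1% of other optimal peaks (74.1% to 76.1%) were matched in both replicates. A match in neither replicate was found for 1.61% of members and 0.928% of other optimal peaks. No summit within 100 bp stood anywhere in the replicate 1 list for 8.47% of members and 8.18% of other optimal peaks. For the replicate 2 list these shares were 1.41% and 1.65%. The strongest members of the runs were matched in both replicates in 96.6% of cases and the other members in 70.6%. The strongest member in the pooled list was also the strongest of its run in replicate 1 in 169 runs, in replicate 2 in 185 and in both in 152. These intervals cover counting error only, and peaks of 1 run are not independent.

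Members and other optimal peaks had different shares at gene starts, and the comparison between them is a description. Of the members, 218 (21.98%, interval 19.4% to 24.7%) had a protein-coding start within 500 bp of the summit, against 3361 (43.3%, interval 42.2% to 44.4%) of the other optimal peaks. Circular shifts of the members gave 23.3% on average (range 18.3% to 28.8%, one-sided permutation p = 0.8), and shifts of the other peaks gave 22.7% (range 21.1% to 24.4%, one-sided permutation p = 0.001, the smallest these shifts can give). The share was 27.9% in groups of 3, 33.4% in pairs and 50.2% in peaks alone, so it fell stepwise with the size of the group. The difference between members and other peaks was not itself tested. The median distance to the nearest start was 1502 bp for members and 743 bp for other peaks.

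Spans of the runs held 193 protein-coding starts of 113 genes, against 211 starts on average after circular shifts (range 161 to 267), a ratio of 0.916 (one-sided permutation p = 0.852). At least 1 start lay inside 100 runs (48.3%), against 120 runs (58.1%) on average after shifts and a range of 95 to 141, and 4 of the 1000 shifts gave as few. That count in the lower direction was looked at after its value was seen. With summits joined at 1000 bp, 15 runs held a start against 27.7 on average after shifts (1 of 1000 shifts gave as few), and with at least 5 summits 42 against 56.4 (0 of 1000). With the stronger 4375 peaks alone, 26 runs held a start against 25.1 on average after shifts (675 of 1000 gave as few), and with the peaks matched in both replicates 49 against 51.0 (364 of 1000). A single gene had its start inside 87 of the runs, 2 genes in 12 and 3 genes in 1, and starts on both strands lay inside 6.

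The other 107 runs held no start. Of these, 65 lay wholly between protein-coding genes, 39 inside 1 gene body and 3 partly over a gene. Counting runs with a start inside too, 66 runs lay wholly within 1 gene body. The stretches between genes that held a run were long: a median of 7597 bp (n = 62, shortest 3020 bp), against 1866 bp for the 3585 other stretches with an optimal peak and 908 bp for all stretches. The genes whose bodies held a run had a median length of 12796 bp (n = 64), against 4816 bp for the 1712 other genes with a peak in the body and 2027 bp for all protein-coding genes. A run cannot lie in a stretch shorter than its span, so these lengths are not independent of the rule.

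By position, 39.2% of members (interval 36.2% to 42.3%) and 22.5% of other optimal peaks (21.6% to 23.5%) lay in introns, and 46.1% of members (42.9% to 49.2%) and 63.2% of other peaks (62.1% to 64.3%) lay outside every exon and every protein-coding gene. Coding exons held 2.72% of members and 2.27% of other peaks. Among the 875 strongest peaks alone, 38.5% of the 156 members and 24.3% of the 719 other peaks were intronic, and 17.3% of these members and 36.9% of these other peaks lay within 500 bp of a start. With each chromosome divided into 3 equal parts, the middle part held 55.2% of members and 44.3% of other peaks. Chromosome II held 49 runs and 24.2% of members against 16.5% of other peaks, and chromosome IV held 19 runs and 8.27% of members against 15.3% of other peaks.

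**Figure D4:**
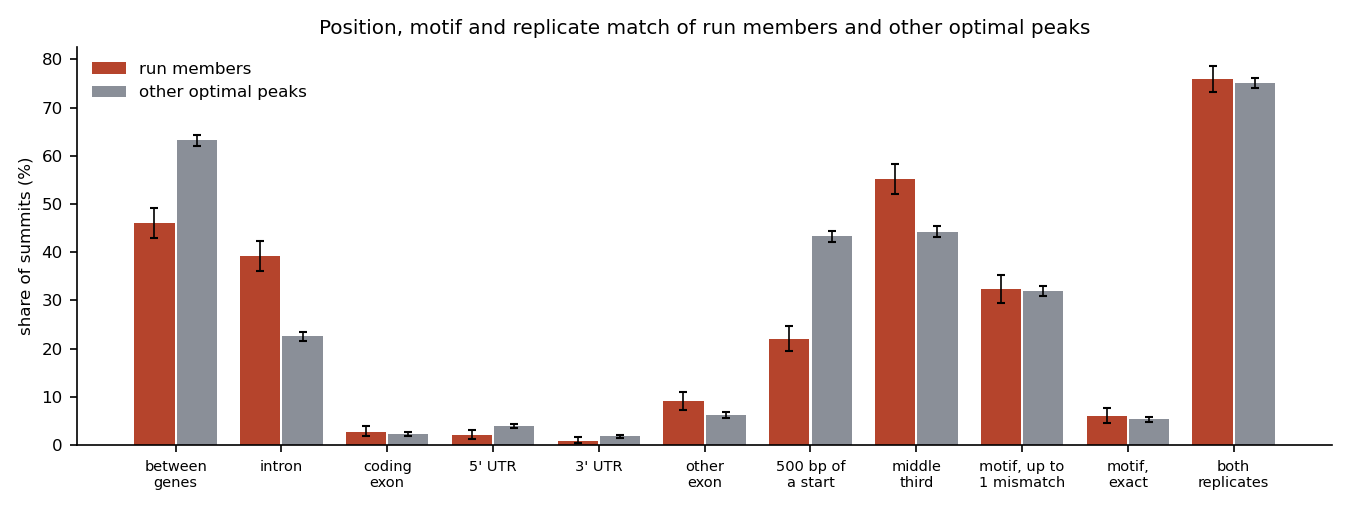
Share in percent (vertical axis) of the 992 run members (red, left bar) and the 7759 other optimal peaks (grey, right bar) in each annotation class, within 500 bp of a protein-coding start, in the middle of 3 equal parts of a chromosome, with the motif, and matched in both replicates. Error bars are 95% exact binomial intervals for counting error. Members were higher in introns (39.2% against 22.5%) and lower within 500 bp of a start (21.98% against 43.3%), and close to the other peaks in motif and replicate match. Groups of 3, counted here among the other peaks, lay between, with 31.6% in introns and 27.9% within 500 bp of a start.

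The BLMP-1 motif was about as frequent under members as under other optimal peaks, with overlapping intervals. AAAGTGAAA with at most 1 mismatch, on either strand, lay within 75 bp of 32.4% of member summits (interval 29.5% to 35.4%) and 31.9% of the other optimal summits (30.9% to 33.0%). The exact motif lay at 5.95% of members and 5.35% of other peaks. Windows of the same length 500 bp to either side held the motif with at most 1 mismatch in 20.2% around members and 19.2% around other peaks, and the exact motif in 1.31% around members and 1.10% around other peaks. Within runs, the strongest member held the motif with at most 1 mismatch in 44.4% of 207 runs (interval 37.6% to 51.5%) and the other members in 29.2% of 785 (26.0% to 32.5%). Among the 875 strongest peaks the share was 58.3% for members and 56.6% for the other peaks. An exact motif was found under at least 1 member in 46 runs and under more than 1 member in 12. Bases within 75 bp of summits were G or C in a median of 41.7% in members and 41.1% in other peaks.

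**Figure D5:**
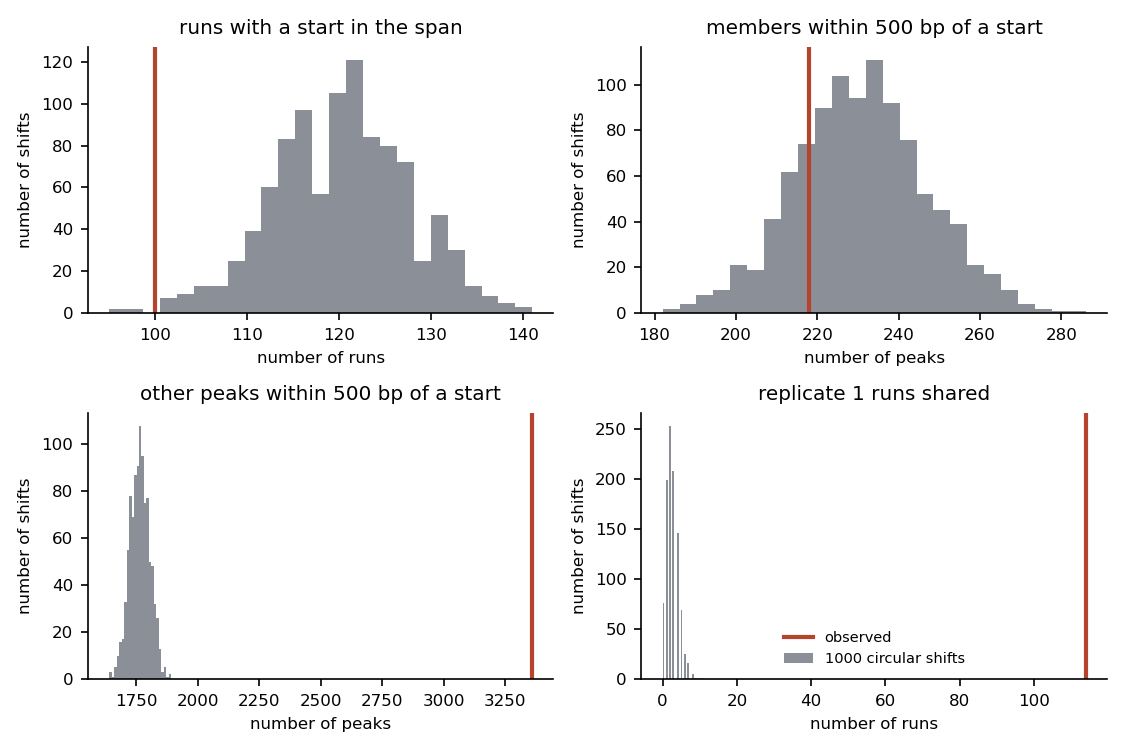
Number of circular shifts out of 1000 (vertical axis) by the count they gave (horizontal axis), with the observed count as a red line, for runs with a start in the span (100 observed), members within 500 bp of a start (218), other optimal peaks within 500 bp of a start (3361) and replicate 1 runs overlapped by a replicate 2 run (114). The observed count lay below most shifts for runs with a start, within the shifts for members near starts, and above every shift for other peaks near starts and for shared runs.

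Few genes had a run at their start. Of 19973 protein-coding genes, 113 (0.566%) had a start between the first and the last summit of a run. In a window that reaches 1500 bp upstream and 500 bp downstream of each start, 221 genes (1.11%) had a member summit and 145 (0.726%) had at least 2. Of the 5476 genes with any optimal peak in that window, 4.04% had a member. Of the gene lists described here, the heterochronic and molting lists had the highest shares of genes with a member. Among 22 heterochronic genes 5 had a member and 15 any optimal peak. The 5 were kin-20, lin-42, lin-28, nhr-25 and nhr-85. The molting list had 6 of 28 (mlt-11, mlt-9, noah-1, nhr-25, acn-1 and qua-1), with 21 of the 28 having an optimal peak. No list was tested, the lists were chosen with earlier results of these data known, and nhr-25 is in 4 of them. In the window, nhr-85, acn-1 and qua-1 had 1 member each, and the 2 members of noah-1 were summits of 1 listed interval.

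Of the timing genes, lin-42, the homolog of Period, had 2 neighbouring runs with 9 summits over 8835 bp on chromosome II (1239895 to 1248730). Their strongest member had 1106 in the pooled list, 225 in replicate 1 and 874 in replicate 2, in an intron, and the second run held 2 members with an exact motif. At lin-28, an RNA-binding inhibitor of let-7 processing, the 4 members were weak: the pooled signals were 197, 191, 81.0 and 74.7, all 4 were matched in both replicates, and none held the motif. The members of 197 and 74.7 were summits 209 bp apart in overlapping intervals, and the lin-28 run reaches 4 summits only with both. At nhr-25, the Ftz-F1 homolog with roles in molting and epidermis, 2 neighbouring runs held 9 summits over 6553 bp, and the strongest had 1070 (372 in replicate 1 and 692 in replicate 2). A member 163 bp downstream of an nhr-25 start had 966 (485 in replicate 1 and 475 in replicate 2).

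Of 24 seam and hypodermis genes, elt-3, nhr-25 and eff-1 had a member (12.5%, against 1.11% of all protein-coding genes), with 11 of the 24 having an optimal peak. Of 27 Wnt genes lit-1 had a member (3.70%), with 12 of the 27 having an optimal peak. At elt-3, an epidermal GATA factor, 4 members in introns had pooled signals between 144 and 199. At lit-1, the Nemo-like kinase, the strongest of 6 members (1094 pooled, 293 in replicate 1 and 801 in replicate 2) lay in an intron 4666 bp from the nearest start, and the 3 members nearest to that start were outside the strongest peaks of replicate 1. At mlt-9, a gene of the molting program, the strongest of 6 members had 608 (182 in replicate 1 and 428 in replicate 2), in an intron 2486 bp downstream of the start.

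Counts for the other gene families stand against the same 1.11% of all protein-coding genes and 4.04% of those with an optimal peak. None of the 6 furrow collagens and none of 35 cuticlins had a member, although all 6 furrow collagens and 17 of the cuticlins had an optimal peak in the window. Of 156 numbered collagens 64 had an optimal peak and 1, col-166, had a member (0.641%). Of 14 other collagens with a mutant phenotype 9 had an optimal peak and 1, rol-6, had a member (7.14%). Of 80 ribosomal protein genes 71 had an optimal peak and 2 had a member (2.50%). Among 269 nuclear hormone receptors, 102 had an optimal peak and 8 (2.97%) had a member (nhr-3, nhr-25, nhr-31, nhr-34, nhr-49, nhr-66, nhr-85 and nhr-91). Members stood at 2 of 26 patched-related genes, 1 of 46 bZIP and bHLH factors, 1 of 59 hedgehog-related genes, 1 of 102 neuropeptide genes, 1 of 1109 chemoreceptor genes and none of 63 ceh homeobox genes. Of 261 microRNA genes, which the protein-coding shares do not cover, 79 had an optimal peak and 6 (2.30%) had a member. Of these, mir-54, mir-55, mir-55b and mir-56 lay together on chromosome X (13144691 to 13145094). The strongest member was the same for mir-54, mir-55 and mir-56 (rank 1486), so the 6 genes are not independent.

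Markers of other tissues were counted in the same way. A member stood at 1 of 9 intestine markers (vit-2, 11.1%) and 1 of 10 pharynx markers (peb-1), against 1.11% of all protein-coding genes. None of 10 body wall muscle, 10 neuron and 10 germline markers had a member. An optimal peak stood at 1 intestine, 2 pharynx, 1 neuron and 2 germline markers, and at no body wall muscle marker. The intestine and pharynx shares rest on 1 gene each and were close to the 12.5% of the seam and hypodermis list. A difference between tissues was not tested. Small structural RNA genes lay within 1000 bp of 2.72% of members and 3.94% of other peaks, and their part in the runs was looked at by leaving out peaks near them, which left 195 runs. Around the tagged gene blmp-1, within 20 kb, there was no optimal peak, and around unc-119, the gene mutated in the strain, there were 3 and no run.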

How the data were processed

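BLMP-1 ChIP-seq peak lists of 2 biological replicates were used as deposited. Lists are narrowPeak files: per the file listings, the authors made them for each replicate and for both together, against a control, as input for an irreproducible discovery rate (IDR) analysis that gave the optimal list. No source used here names the aligner, the peak caller, a version or the IDR threshold. The deposited signal and −log10 q-value are the authors' values of unknown scale: signal was used only to rank and describe peaks within 1 list, and the q-values were not used for results. The files hold no read counts, so depth is unknown and no depth-based interval can be given. Summits were start plus offset, printed 1-based on ce11, and 0 columns of per-sample values were left unused.

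Runs joined summits at most 1500 bp apart and kept those of 4 or more. Classes used Ensembl release 115 models, in the order coding exon, 5′ UTR, 3′ UTR, exon of another gene type, intron, between genes. The listed tests are 1000 circular shifts of at least 10000 bp, called at one-sided permutation p of 0.05 in the upper direction. A shift of the list itself keeps its spacing, so the number of runs has no such comparison. Replicate matches were summits within 100 bp among the 8751 strongest peaks of each replicate. Shares have exact Clopper-Pearson intervals. Run finding, motif search and shifts were tested on simulated data.

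The runs named are the 10 with the most summits and the 10 with the strongest best member, each with the genes whose starts lie inside, or else the gene holding the span, or else the gene of the nearest start. Genes of the heterochronic, molting, furrow collagen, seam and hypodermis, and Wnt lists with at least 2 members near a start were named too. Any other gene, such as mdl-1, col-166, rol-6, mxl-3 and letm-1, was named after their values were seen. The members and lists were chosen with earlier results of these data known. Computation used Python 3.11.15, pandas 2.3.3, NumPy 2.4.6, SciPy 1.17.1 and matplotlib 3.10.9.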

Additional observations from a re-analysis of the deposited data

How the results depend on the processing

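The number of runs depends on the rule. Against 207 runs and 992 member peaks, joining at 1000 bp gave 59 runs and 266 members, and joining at 2000 bp gave 1579 members in 306 runs. At least 3 summits gave 521 runs and 1934 members, and at least 5 gave 84 runs and 500 members. The stronger 4375 optimal peaks gave 43 runs and 198 members, and peaks matched in both replicates gave 90 runs and 403 members; both lists hold fewer peaks. Each replicate alone gave 194 to 202 runs, 909 to 996 members, a ratio of observed to shifted starts of 0.897 to 0.903 and a motif share of 30.7% to 33.1%. The ratio of starts, 0.916, was 0.573 with joining at 1000 bp and 0.729 with at least 5 summits (one-sided permutation p = 0.999 each). It exceeded 1 with at least 3 summits (1.01), with the stronger peaks (1.09), with matched peaks (1.02) and with spans extended by 500 bp on each side (1.12, one-sided permutation p = 0.057), and no alternative passed the test; the cause was not tested. The motif share of members was 38.4% with the stronger peaks, 5.95% for exact matches and 45.5% within 150 bp. The overlap of replicate runs stayed between 35.1% and 65.8% over 7 alternatives, each with permutation p = 0.001. Merging summits no farther apart than 336 bp, an alternative chosen after seeing the data, left 186 runs and 877 members. No paired analysis was possible because there is only 1 group. Depth is unknown, and 2 replicates limit what the overlap can show.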

Other observations

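Runs also held the starts of genes outside the lists and ranks above, and the following were picked after their values were seen. They form no list, and no count or share is drawn from them. At let-526, the ARID-domain subunit of the SWI/SNF remodelling complex, 4 members spanned 2977 bp on chromosome I and the strongest had a pooled signal of 1308 (461 in replicate 1 and 863 in replicate 2), with all 4 matched in both replicates. At mdl-1, the middle of 3 neighbouring runs held 7 members, all matched in both replicates and none with the motif, and the strongest had 707 (289 in replicate 1 and 420 in replicate 2). At klf-3, a Krüppel-like factor, 5 members spanned 4587 bp with a strongest signal of 647 (334 in replicate 1 and 318 in replicate 2). At egl-44, the TEAD homolog, 4 members spanned 4006 bp with a strongest signal of 354, and at unc-62, a Meis-class homeodomain factor, 4 members spanned 2582 bp with a strongest signal of 405. All 4 members at egl-44 and all 4 at unc-62 were matched in both replicates. The same window around unc-62 starts held 1 member, of rank 7481, and the strongest at unc-62 lay outside it.

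At vab-10, the spectraplakin of hemidesmosomes, 4 members spanned 2613 bp with a strongest signal of 875 (300 in replicate 1 and 593 in replicate 2), and none held the motif. From 1500 bp upstream to 500 bp downstream of vab-10 starts stood 2 members, the stronger of rank 1447, and the strongest of the run lay outside. At pat-12, another hemidesmosome component, 6 members spanned 5572 bp with a strongest signal of 615 (189 in replicate 1 and 423 in replicate 2), and 3 held the motif with at most 1 mismatch. At fasn-1, the fatty acid synthase gene, 4 members spanned 3306 bp with a strongest signal of 493 (166 in replicate 1 and 319 in replicate 2), and 3 were matched in both replicates.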
